A study of Mus musculus with 57 samples.

Results

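WNT effector and target genes are described here by where GATA6, NANOG, SOX2, GATA4 and SOX17 peaks lay around them while mouse embryonic stem (ES) cells were turned towards primitive endoderm (PrE). The 8 genes were Lef1, Tcf7, Tcf7l1 and Tcf7l2, which encode the DNA-binding factors of the pathway, Ctnnb1, which encodes β-catenin, and the WNT-responsive genes Axin2, Lgr5 and Sp5. They are 8 of the 21911 protein-coding genes of the annotation, and were chosen by name. In GRCm38 they lie at chr3:131110471-131224356 (Lef1, plus strand), chr11:52252371-52283014 (Tcf7, minus), chr6:72626378-72789254 (Tcf7l1, minus), chr19:55741820-55933654 (Tcf7l2, plus), chr9:120929216-120960507 (Ctnnb1, plus), chr11:108920349-108950783 (Axin2, plus), chr10:115450311-115587780 (Lgr5, minus) and chr2:70474923-70477729 (Sp5, plus). A peak was assigned to a gene when its summit lay within 50 kb of the transcription start site (TSS), so a peak may belong to several genes, and which gene it acts on was not measured. The windows of the 8 genes held 156 sites, a site being a stretch of overlapping peaks of any list. Of these 156 sites, 71 were seen in 1 list only, 66 were held by both lists of at least 1 group, and 148 had the named gene as the nearest protein-coding TSS.

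In canonical WNT signalling, ligand binding to Frizzled and LRP receptors stops the destruction complex, which contains AXIN, APC and the kinase GSK3, from degrading β-catenin. β-catenin then enters the nucleus and joins TCF/LEF factors on DNA. TCF7L1 acts mainly as a repressor in ES cells and TCF7 and LEF1 mainly as activators, while TCF7L2 can do either. Axin2 is a negative feedback target that encodes a scaffold of the destruction complex, Lgr5 encodes a receptor for R-spondins, and Sp5 encodes a zinc finger factor that is a direct WNT target in ES cells. Epiblast cells, which give rise to the embryo proper, and PrE cells, which line the yolk sac, are the alternative fates of the inner cell mass.

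The cells were KH2 mouse ES cells (labelled C57BL/6) carrying 1 copy of a doxycycline (Dox)-inducible transgene, labelled TRE:GATA6-DSREd2, and all groups share it. Factor binding was mapped by CUT&RUN, in which an antibody-tethered nuclease cuts out bound DNA, and each of 15 groups had 2 peak lists. The GATA6 groups were 0, 2, 4, 8 and 48 h, the NANOG and SOX2 groups 0, 2, 4 and 8 h, and the GATA4 and SOX17 groups 24 h. The 0 h cells were kept in 2i medium with LIF, and the later cells in serum medium with LIF and Dox, with Dox withdrawn after 12 h. The 2i medium holds a MEK inhibitor and the GSK3 inhibitor CHIR, which switches on WNT signalling by keeping β-catenin from degradation. Between 0 h and any later time, GATA6 induction and the removal of this WNT agonist therefore cannot be told apart at any of the 8 genes. All cells came from this engineered line, so the observations are of forced GATA6 expression in culture. The labels do not say that the 2 lists of a group came from separate cultures, so the spread between them may be technical.

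For 6 GATA6 lists, the name in the file and the sample it is filed under disagree. The lists filed under 4 h carry the names of the 48 h libraries, those filed under 8 h the names of 4 h, and those filed under 48 h the names of 8 h. The time in the file name is used throughout. Every GATA6 value at 4, 8 or 48 h rests on that choice, while the values at 2 h do not. Read by the sample record instead, the values given for 48 h would be those of 4 h, those for 4 h those of 8 h, and those for 8 h those of 48 h. List length ranged from 86 peaks (GATA6 0 h, replicate 1) to 79358 (GATA6 2 h, replicate 1), and the shortest list after induction held 2255 peaks (NANOG 8 h, replicate 2). Background depth, recovered from the peak statistics as fragments covering a base, was 0.287 to 1.55 per list outside GATA4, where it could not be recovered. The peak caller's fold is the number of fragments at the summit over the local background, with 1 added to each, so its size also depends on depth and folds are set side by side within a factor.

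Stretches of 300 bases at 6 of the sites are printed because the results turn on them. They are GRCm38 (mm10) plus-strand sequence, 5′ to 3′, none overlaps an annotated exon, and capitals mark 3 kinds of word found on either strand. The GATA word is AGATAA or AGATAG or TGATAA or TGATAG, the TCF/LEF word is CTTTGAA or CTTTGAT, and the SOX word is ACAATG or ACAAAG. The stretches at chr11:108910889-108911188 upstream of Axin2, chr10:115586374-115586673 in an Lgr5 intron and chr9:120902718-120903017 upstream of Ctnnb1 lie at the strongest GATA6 site of each gene at 2 h. The others are chr2:70474623-70474922, the 300 bases before the Sp5 TSS, chr6:72787405-72787704 in a Tcf7l1 intron and chr3:131084681-131084980 upstream of Lef1. The Tcf7l1 and Lef1 stretches lie at sites of NANOG and SOX2 at 0 h. The Sp5 stretch holds the SOX2 summits of 0 h, at -139 and -134 bp, but not the NANOG summits, which lay at 342 and 126 bp, downstream of the TSS. All but the Sp5 stretch are centred on the median summit of several lists, and so differ from the windows around the summits of a single group in which words were counted further on. In the Sp5 sequence a GATA word and a SOX word overlap by 1 base and are capitalised together.
Axin2 site: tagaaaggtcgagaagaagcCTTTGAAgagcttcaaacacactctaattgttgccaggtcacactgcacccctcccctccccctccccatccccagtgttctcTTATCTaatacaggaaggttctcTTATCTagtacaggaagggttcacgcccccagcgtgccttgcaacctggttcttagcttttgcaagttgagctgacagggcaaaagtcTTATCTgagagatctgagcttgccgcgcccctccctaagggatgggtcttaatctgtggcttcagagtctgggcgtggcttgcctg
Lgr5 site: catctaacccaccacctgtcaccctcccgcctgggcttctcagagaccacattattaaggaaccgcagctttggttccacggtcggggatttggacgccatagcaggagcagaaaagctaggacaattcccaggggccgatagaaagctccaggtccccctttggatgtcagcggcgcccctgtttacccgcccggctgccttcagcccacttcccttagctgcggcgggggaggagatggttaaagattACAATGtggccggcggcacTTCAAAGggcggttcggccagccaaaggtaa
Ctnnb1 site: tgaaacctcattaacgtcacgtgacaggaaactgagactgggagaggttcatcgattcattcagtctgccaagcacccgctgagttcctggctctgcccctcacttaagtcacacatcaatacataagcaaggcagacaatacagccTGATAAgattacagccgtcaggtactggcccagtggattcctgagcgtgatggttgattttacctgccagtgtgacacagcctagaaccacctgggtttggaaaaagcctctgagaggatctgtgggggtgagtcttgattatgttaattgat
Sp5 site: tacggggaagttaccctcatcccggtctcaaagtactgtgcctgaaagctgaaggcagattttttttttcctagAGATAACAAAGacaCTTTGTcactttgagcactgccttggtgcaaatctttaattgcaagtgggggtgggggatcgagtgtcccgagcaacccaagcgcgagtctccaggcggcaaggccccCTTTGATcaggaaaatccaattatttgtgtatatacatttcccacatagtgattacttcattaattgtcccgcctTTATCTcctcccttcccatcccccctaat
Tcf7l1 site: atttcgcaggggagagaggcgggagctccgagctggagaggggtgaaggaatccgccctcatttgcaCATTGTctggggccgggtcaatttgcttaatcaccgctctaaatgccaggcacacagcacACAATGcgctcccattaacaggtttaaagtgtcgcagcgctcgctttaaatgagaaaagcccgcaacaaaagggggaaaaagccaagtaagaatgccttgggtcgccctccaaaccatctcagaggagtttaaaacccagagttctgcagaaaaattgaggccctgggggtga
Lef1 site: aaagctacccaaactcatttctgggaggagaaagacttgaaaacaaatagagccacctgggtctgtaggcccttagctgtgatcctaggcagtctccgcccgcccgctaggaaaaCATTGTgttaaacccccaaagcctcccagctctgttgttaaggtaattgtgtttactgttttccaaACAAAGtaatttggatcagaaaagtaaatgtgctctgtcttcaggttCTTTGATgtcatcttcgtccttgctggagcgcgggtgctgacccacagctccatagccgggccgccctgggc
The Axin2 stretch holds 3 GATA words and 1 TCF/LEF word, the Lgr5 stretch no GATA word, 1 TCF/LEF word and 1 SOX word, and the Ctnnb1 stretch 1 GATA word. The 300 bases around the GATA6 summit at 2 h held 0 GATA words at Axin2 and 1 at Lgr5, and the whole sites held 7 and 2. The Sp5 stretch holds all 3 kinds, the Tcf7l1 stretch 2 SOX words and the Lef1 stretch 2 SOX words and 1 TCF/LEF word. The Sp5 stretch was set at the TSS, whereas those of Tcf7l1 and Lef1 lie at the strongest NANOG site of 0 h. That site of Sp5, at 10.1 kb, held 2 SOX words and 0 GATA or TCF/LEF words over its whole length.

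GATA6 peaks were found near all 8 genes at 2 h. Before induction, replicate 1 at 0 h held no peak near any of them and replicate 2 held 1, near Axin2. At 2 h the 8 windows held 84 and 61 peaks in replicates 1 and 2, at 4 h 52 and 57, at 8 h 23 and 31, and at 48 h 6 and 7. The lists shortened over the same times, from 79358 and 62683 peaks at 2 h to 5933 and 9767 at 48 h. By 48 h the cells had been without Dox since 12 h, and the 48 h libraries alone are labelled as merged. The cause of the shortening was not tested. Per 10000 peaks of a list, the 8 windows held 10.2 ± 0.603 peaks in the 2 h lists, 10.7 ± 0.252 in those of 4 h, 9.14 ± 1.58 in those of 8 h and 8.64 ± 2.08 in those of 48 h (SD, n = 2 lists), so the number of peaks near these genes followed list length. Over the 15 groups this value lay between 8.64 and 12.2, except for GATA6 at 0 h (5.67 ± 8.02, n = 2) and NANOG at 8 h (2.72 ± 3.85, n = 2).

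**Figure D1:**
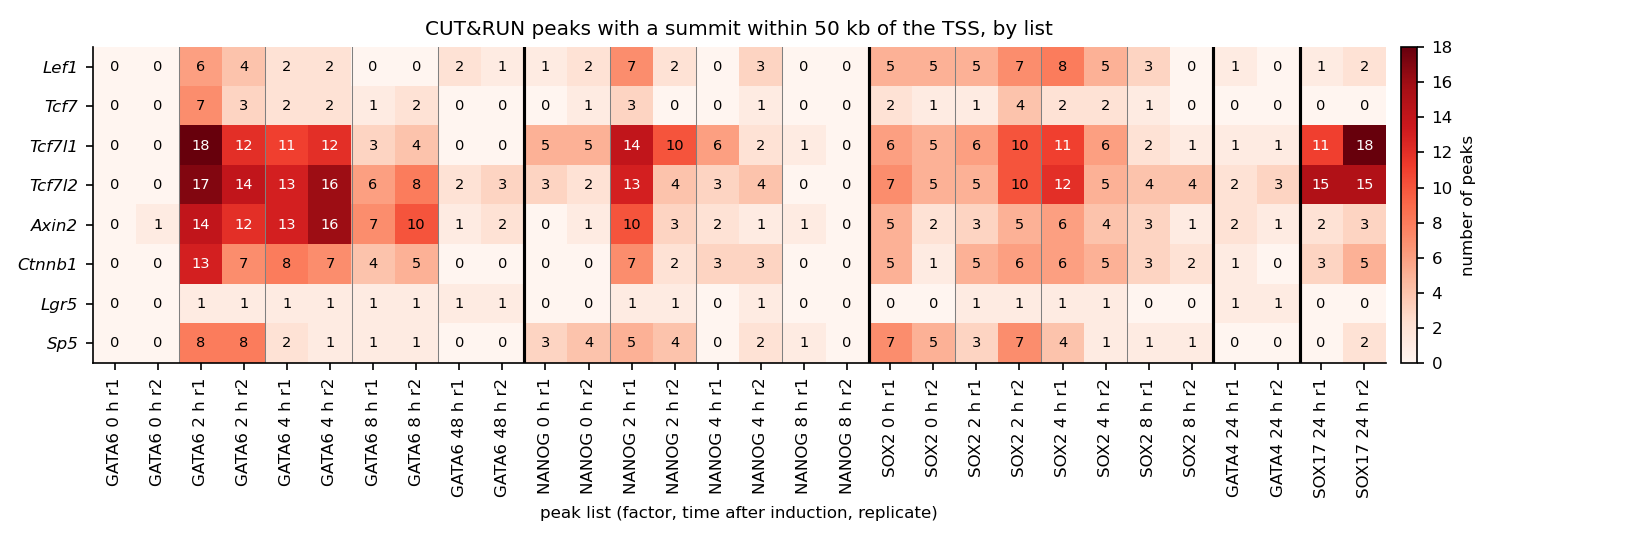
Number of CUT&RUN peaks with a summit within 50 kb of the TSS of each of the 8 genes (rows) in each of the 30 peak lists (columns, r1 and r2 being the replicates), with the number printed and shaded from 0 to 18. Tcf7l1, Tcf7l2 and Axin2 carried the most GATA6 peaks at 2 h (12 to 18), Lgr5 carried 1 in each GATA6 list from 2 h on, and Tcf7l1 and Tcf7l2 carried 11 to 18 SOX17 peaks.

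Among the DNA-binding factors, Tcf7l1, the repressor, had 18 and 12 GATA6 peaks at 2 h, 11 and 12 at 4 h, 3 and 4 at 8 h and none at 48 h. Tcf7l2 had 17 and 14 at 2 h, 13 and 16 at 4 h, 6 and 8 at 8 h and 2 and 3 at 48 h. The 2 h and 4 h lists of these genes overlapped, and those of 8 h and 48 h lay below both. Lef1 had 6 and 4 at 2 h, 2 and 2 at 4 h, none at 8 h and 2 and 1 at 48 h, and Tcf7 had 7 and 3, 2 and 2, 1 and 2, and then none. Ctnnb1 had 13 and 7 at 2 h, 8 and 7 at 4 h, 4 and 5 at 8 h and none at 48 h. Among the responsive genes, Axin2 had 14 and 12, then 13 and 16, then 7 and 10, and at 48 h 1 and 2. Sp5 had 8 in each list at 2 h, 2 and 1 at 4 h, 1 in each at 8 h and none at 48 h, whereas Lgr5 had a single peak in each of the 8 lists. In a list of all protein-coding genes ranked by mean GATA6 peak number at 2 h, 2.84% had as many as Tcf7l2, 3.2% as many as Tcf7l1, 5.43% as many as Axin2 and 80.8% as many as Lgr5.

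Whether peak number differed between 2, 4, 8 and 48 h was tested gene by gene with a two-sided exact permutation test over the 8 lists, for which 105 arrangements give a smallest p of 0.00952. Of the 8 genes, 7, all but Lgr5, had an unadjusted exact permutation p of 0.05 or less, against a background of 36.3% of the 19614 genes tested (7122 genes). All 7 had fewer peaks at 48 h than at 2 h, again against 36.3% of all genes (7115 genes). The exact permutation p was 0.019 for Tcf7l1, Tcf7l2 and Axin2, 0.0286 for Lef1, Tcf7 and Sp5, and 0.0476 for Ctnnb1. After Benjamini-Hochberg adjustment over all genes none of the 19614 passed 0.05, the adjusted exact permutation p being 0.0911 for 6 of these genes and 0.131 for Ctnnb1. With each list cut to its 5933 strongest peaks, 0 of the 8 genes had an unadjusted p of 0.05 or less (359 genes of all, 3.34%), so the difference in number was not seen at equal list length. Without either 8 h or either 48 h list in turn, or without replicate 2 at 4 h, 3 or 4 genes had such a p, and 23.5 to 30.4% of all genes did.

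NANOG peaks lay near Lef1, Tcf7l1, Tcf7l2 and Sp5 before induction. Tcf7l1 had 5 NANOG peaks in each list at 0 h, 14 and 10 at 2 h, 6 and 2 at 4 h and 1 and 0 at 8 h. Tcf7l2 had 3 and 2 at 0 h, 13 and 4 at 2 h, 3 and 4 at 4 h and none at 8 h. The 2 h lists stood apart from each other as well as from the other times, with 52285 and 26742 peaks in all. Sp5 had 3 and 4 at 0 h, 5 and 4 at 2 h, 0 and 2 at 4 h and 1 and 0 at 8 h, and Lef1 1 and 2, 7 and 2, 0 and 3, and none. At 0 h only 0.94% of all genes had as many NANOG peaks as Tcf7l1 and 3.32% as many as Sp5. Axin2, Ctnnb1, Tcf7 and Lgr5 had at most 1 NANOG peak in a 0 h list.

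Over 0, 2, 4 and 8 h, 2 of 8 genes had an unadjusted exact permutation p of 0.05 or less for NANOG, Tcf7l1 (p = 0.0286, adjusted 0.303) and Tcf7l2 (p = 0.0381, adjusted 0.354). The background was 11.3% of 19063 genes, and 9.16% of genes passed with fewer peaks at 8 h than at 0 h, as both of these did. None of the 19063 genes passed after adjustment. At 2255 peaks per list 0 of the 8 genes passed (0.612% of all genes), and 0 passed without any one of the 0 h or 8 h lists (4.75 to 6.66%). Without either 4 h list 1 passed (6.3 and 6.38%), and without replicate 2 at 2 h 3 did (19.2%).

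SOX2 peaks were present near 7 of the 8 genes at 0 h, Lgr5 being the exception. Lef1 had 5 in each list at 0 h, 5 and 7 at 2 h, 8 and 5 at 4 h and 3 and 0 at 8 h. Sp5 had 7 and 5, 3 and 7, 4 and 1, and 1 and 1, and Tcf7l2 7 and 5, 5 and 10, 12 and 5, and 4 and 4. Lgr5 had none at 0 h, 1 in each list at 2 h and 4 h and none at 8 h. The replicate lists of one time differed in length (24073 and 52574 peaks at 2 h, 45340 and 24617 at 4 h), and the longer list held more peaks near each of the 8 genes except Lgr5 and, at 4 h, Tcf7, where both lists held the same number. By the same exact permutation test 0 of 8 genes had an unadjusted p of 0.05 or less, against 2.37% of 19924 genes (472 genes), and none of all genes passed after adjustment (smallest adjusted p = 0.903).

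At 24 h, SOX17 peaks lay mainly near Tcf7l1 and Tcf7l2, with 11 and 18 peaks near Tcf7l1 and 15 in each list near Tcf7l2. Only 0.589% of all genes had as many SOX17 peaks as Tcf7l2 and 0.707% as many as Tcf7l1. The other 6 genes had 0 to 5 SOX17 peaks per list, and Tcf7 and Lgr5 had none. GATA4 lists were short (8427 and 4006 peaks) and held 8 and 6 peaks near the 8 genes, at most 3 for any gene.

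A gene was said to have a site in a group when a stretch within its window was held by both lists. The 8 genes had such a site in the following numbers, each beside the share of all protein-coding genes. For GATA6 none of the 8 had a site at 0 h (0.00456% of all genes), all 8 had one at 2 h (74.7%) and again at 4 h (67.6%), then 7 at 8 h (55.2%), Lef1 being without, and 4 at 48 h (18.5%). Those at 48 h were Lef1, Tcf7l2, Axin2 and Lgr5. For NANOG 4 of 8 had one at 0 h (25.9%) and 6 at 2 h (52.2%), while 3 had one at 4 h (26%) and 0 at 8 h (2.73%). For SOX2 all but Lgr5 had one at 0 h (7 genes, 56.1%), all 8 at 2 h (53.8%), all but Sp5 at 4 h (7 genes, 56%) and 4 genes at 8 h (32.1%). At 24 h they were 4 for GATA4 (17.9%) and 5 for SOX17 (55.6%). A single list decided some of these counts. Without replicate 1 of NANOG at 4 h all 8 genes had a peak (10687 of all genes), without replicate 2 of NANOG at 8 h 3 did (5724) and without replicate 2 of SOX2 at 8 h 7 did (11094). With 8 genes the counts describe these loci and were not tested against the background. The Lef1 site at 48 h, chr3:131064201-131064359 at -46.1 kb, had folds of only 1.92 and 1.83 over a local background of 47.5 and 58.5 fragments, and was in no other list.

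**Figure D2:**
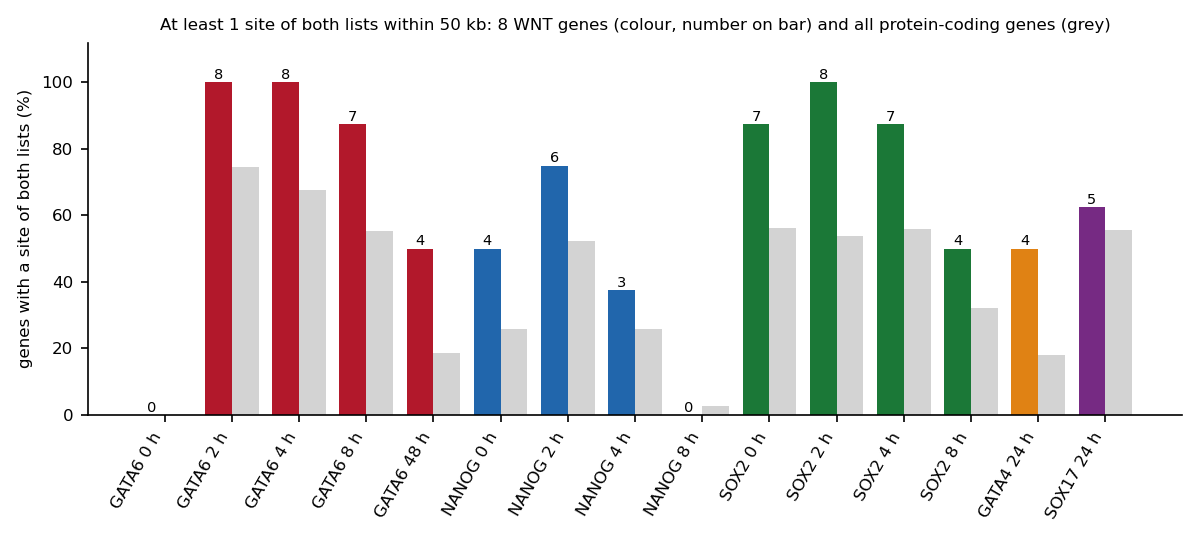
Percent of genes with at least 1 site held by both lists of a group within 50 kb of the TSS, for the 8 WNT genes (coloured bars, with the number of genes above) and for all 21911 protein-coding genes (grey bars). The 8 genes lay above all genes in each group but GATA6 at 0 h and NANOG at 8 h, where none of the 8 had a site.

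At an equal length of 4006 peaks per list, with GATA6 0 h and NANOG 8 h left out because they hold shorter lists, fewer of the genes had a site in each group but SOX2 at 8 h, where the count was 4 as with the whole lists. Axin2 then had a GATA6 site at 2, 4, 8 and 48 h, and was the only one of the 8 with a site at 48 h (12.6% of all genes). At 2 h Tcf7l2, Axin2, Ctnnb1 and Lgr5 had a GATA6 site (14.7% of all genes). Tcf7l1 and Sp5 had a NANOG site at 0 h (10.9%) and Lef1 and Sp5 a SOX2 site at 0 h (13.4%). At 8 h the 4 genes Tcf7l1, Tcf7l2, Axin2 and Ctnnb1 had a SOX2 site (12.7%).

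The most widely held site lay upstream of Axin2, the feedback scaffold gene (chr11:108909561-108912703, intergenic, at -9.54 kb, where negative distances are upstream of the TSS). It held a peak in 24 of 30 lists. Its GATA6 folds were 47.7 and 48.4 at 2 h, from 252 and 187 fragments at the summit, 35.2 and 45.9 at 4 h, 36.7 and 49.0 at 8 h and 20.2 and 20.9 at 48 h. Both 4 h lists lay below both 2 h lists, the 8 h lists overlapped those of 2 h as well as those of 4 h, and both 48 h lists lay below all of these, although the 48 h folds were still in the top 2.17% of that group's regions. This Axin2 site was named as the strongest of 9 GATA6 sites of both lists near the gene at 2 h. At 2 h 0.592% of GATA6 regions were as strong, a rank that follows from that choice and is not a test. GATA4 at 24 h had folds of 21.2 and 19.6 there, and 0.642% of GATA4 regions were as strong.

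NANOG was not called at this Axin2 site in either list at 0 h or 8 h, and had folds of 18.1 and 14.8 at 2 h and 7.98 and 7.79 at 4 h. SOX2 folds were 5.5 and 3.57 at 0 h, 8.04 and 14.2 at 2 h, 25.8 and 14.4 at 4 h and 11.2 and 14.5 at 8 h, so every later list lay above both 0 h lists. SOX17 had folds of 11.1 and 12.9. The GATA6 summits lay at -9545 and -9447 bp at 2 h, -9427 and -9431 bp at 4 h, -9296 and -9288 bp at 8 h and -9248 and -9315 bp at 48 h, and the GATA4 summits at -9304 and -9290 bp. The GATA words in the printed sequence start at -9357, -9334 and -9246 bp and the TCF/LEF word at -9440 bp. The 8 h, 48 h and GATA4 summits thus lay in the stretch of the GATA words, and the 2 h and 4 h summits upstream of them. At the Axin2 TSS itself (chr11:108920070-108921260) GATA6 folds at 2 h were 13.2 and 8.6, and 17 lists held a peak.

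Lgr5, the R-spondin receptor gene, had its only site held by both lists of a group in an intron (chr10:115586008-115587354, at 1.3 kb). GATA6 folds there were 32.2 and 24.7 at 2 h, 24.1 and 16.1 at 4 h, 8.83 and 12.9 at 8 h and 3.39 and 3.89 at 48 h. The 2 h and 4 h lists lay above those of 8 h, and both 48 h lists lay below these. GATA4 folds were 5.65 and 6.60. SOX2 was not called at 0 h or 8 h and had folds of 7.56 and 7.44 at 2 h and 8.54 and 4.82 at 4 h, while NANOG was called in 1 list at 2 h and 1 at 4 h and SOX17 in none.

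Ctnnb1, the β-catenin gene, had its strongest GATA6 site upstream (chr9:120902281-120903304, intergenic, at -26.3 kb). GATA6 folds were 29.4 and 25.2 at 2 h, 15.9 and 18.3 at 4 h and 9.54 and 10.7 at 8 h, with no peak at 48 h and no overlap between times. This site was named as the strongest of 7 GATA6 sites of both lists near the gene at 2 h. The height of its 2 h folds therefore follows in part from that choice. NANOG was called in neither list at 0 h, with folds of 8.66 and 7.82 at 2 h and 7.71 and 5.08 at 4 h. SOX2 was called in 1 list at 0 h (9.8) and in both afterwards, at 13.3 and 13.9, 19.9 and 9.37, and 7.72 and 8.74. A pair of sites lay at 30.7 and 32.7 kb, around the 3′ end of Ctnnb1 and within an intron of the overlapping gene Ulk4, where SOX2 reached 27.9 and 13.4 at 4 h.

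**Figure D3:**
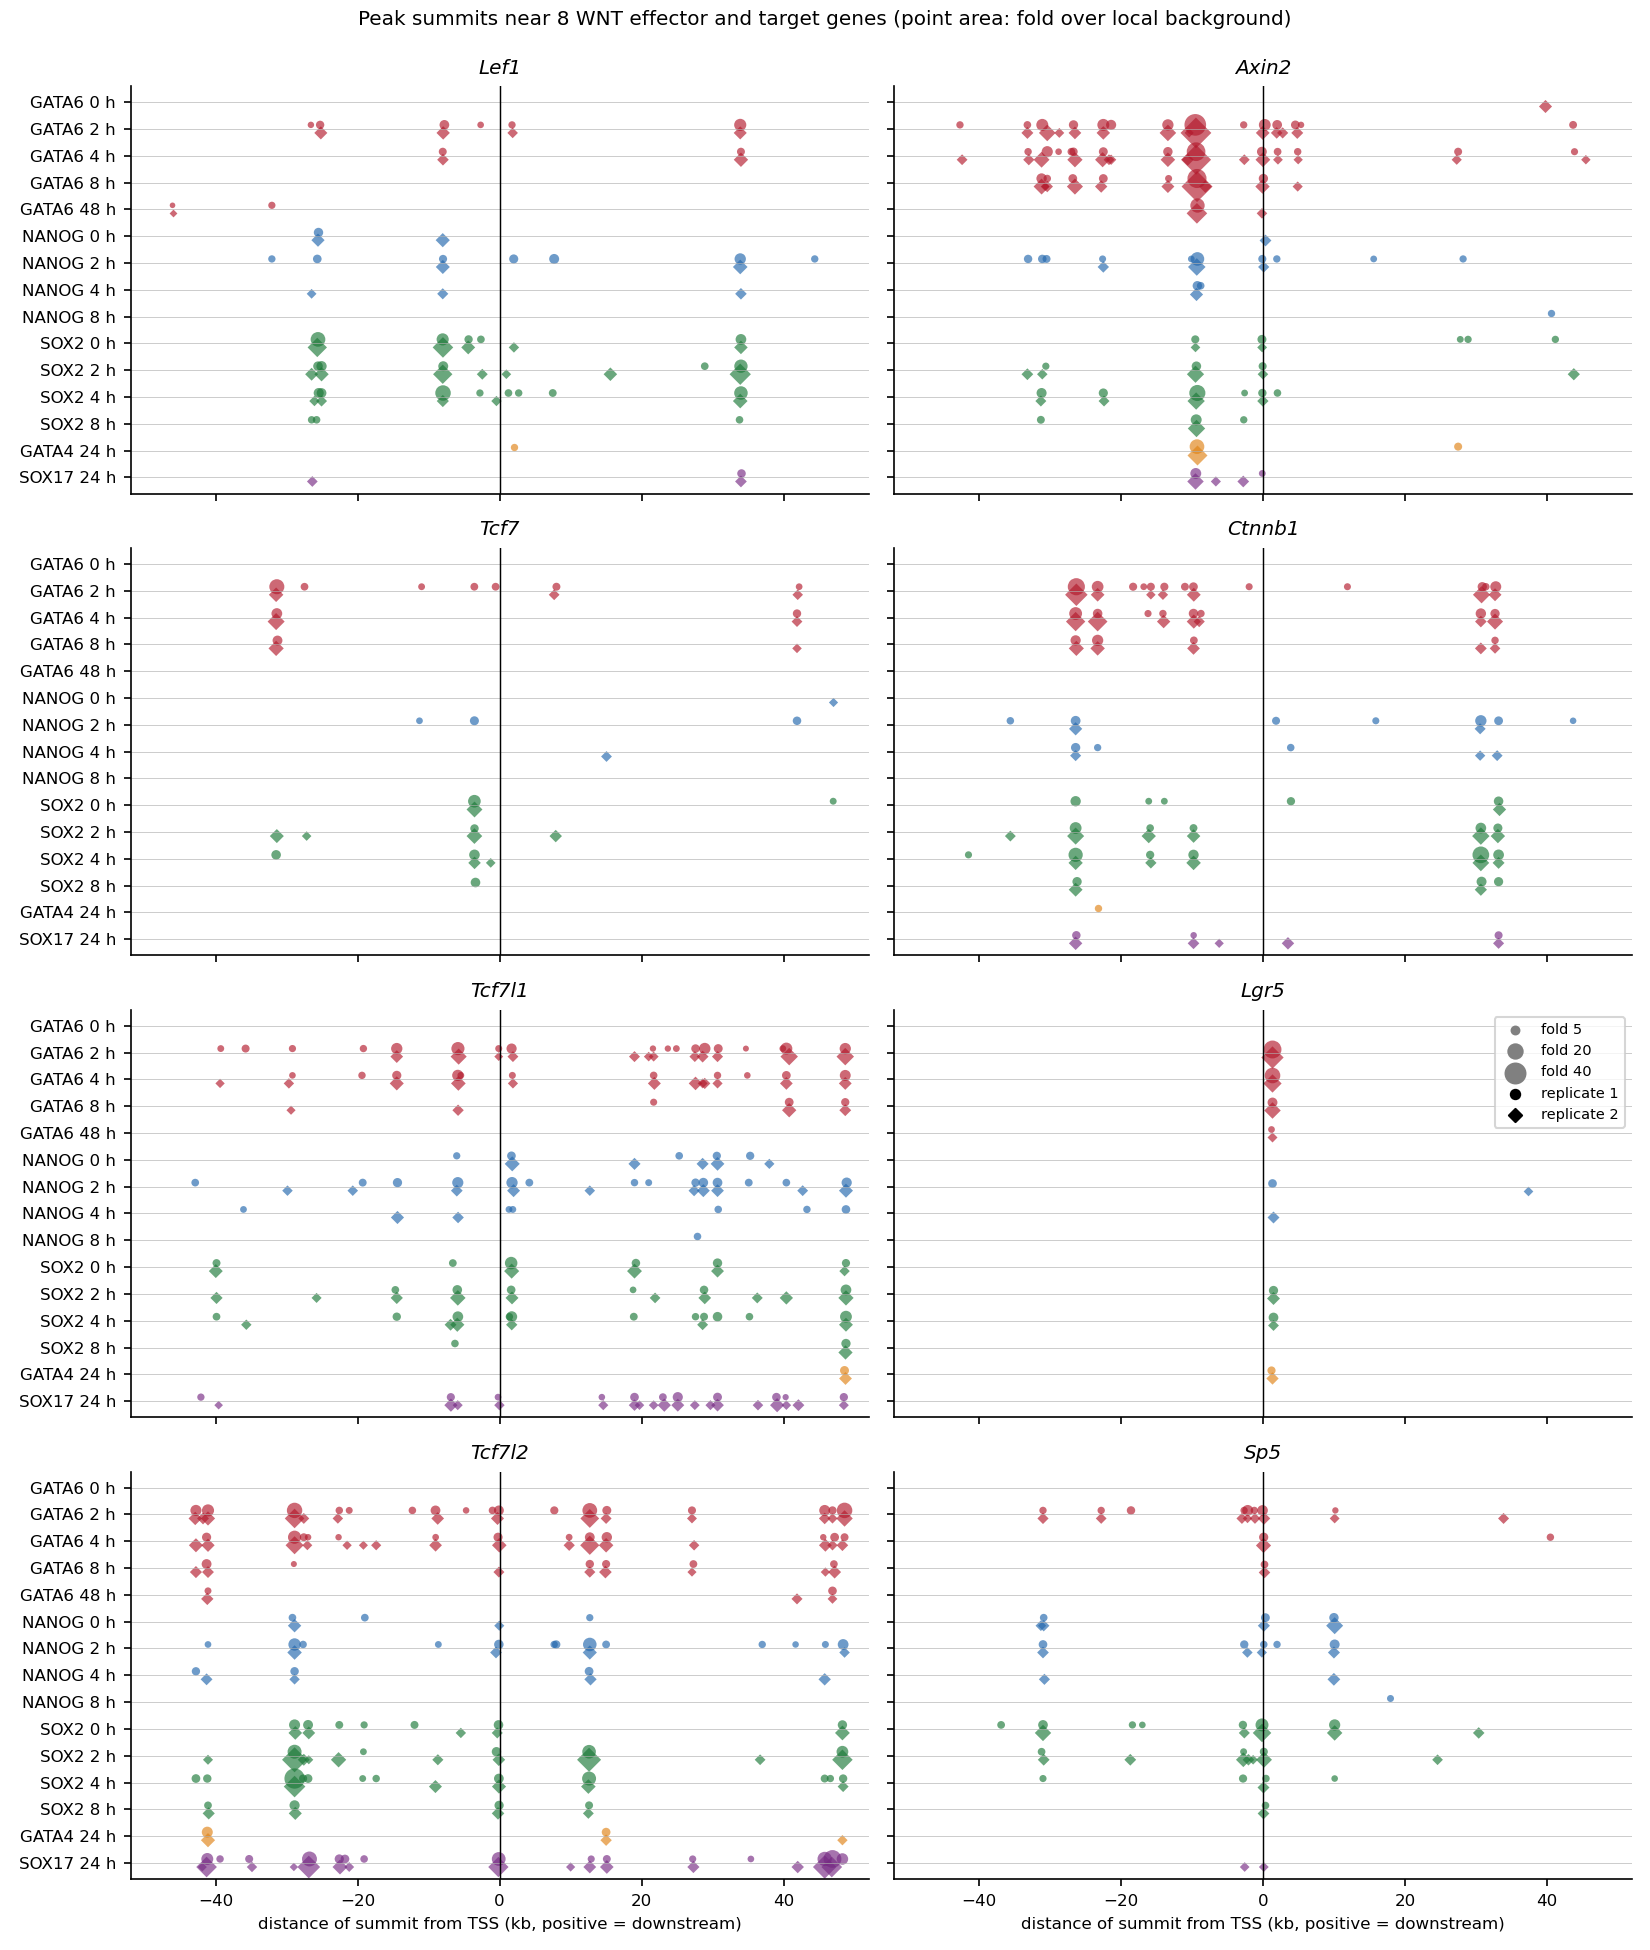
Distance of each peak summit from the TSS (kb, positive downstream) for the 8 genes, with a row for each factor and time, circles for replicate 1 and diamonds for replicate 2, and point area in proportion to fold over local background. The largest points are the GATA6 peaks upstream of Axin2 (fold up to 49.0), and all Lgr5 summits but 1 lie near its TSS.

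Tcf7l2 had 2 long stretches of overlapping peaks, in each of which summits lay in more than 1 place. In the stretch chr19:55711660-55715577, GATA6, NANOG and SOX2 summits clustered at about -28.9 kb, with GATA6 folds of 23.5 and 18.8 at 2 h and 16.8 and 15.7 at 4 h. SOX2 folds there were 11.4 and 8.36 at 0 h, 19.1 and 31.6 at 2 h, 41.7 and 23.1 at 4 h and 9.46 and 7.63 at 8 h. The SOX17 summits lay instead at -26.8 and -26.9 kb, with folds of 22.0 and 25.7, where SOX2 had 8.91 and 7.27 at 0 h. In the stretch chr19:55788328-55790923, in a Tcf7l2 intron, GATA6 at 2 h had folds of 23.9 and 12.8 at 48.6 kb and 5.67 and 4.12 at 46.9 kb. At 8 h and 48 h only the inner place held GATA6 peaks, with 4.77 and 7.40 and then 6.41 and 3.69, and SOX17 had folds of 31.8 and 21.1 there. This site was named as the strongest of 11 SOX17 sites of both lists near Tcf7l2, and 2.24% of SOX17 regions were as strong.

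**Figure D4:**
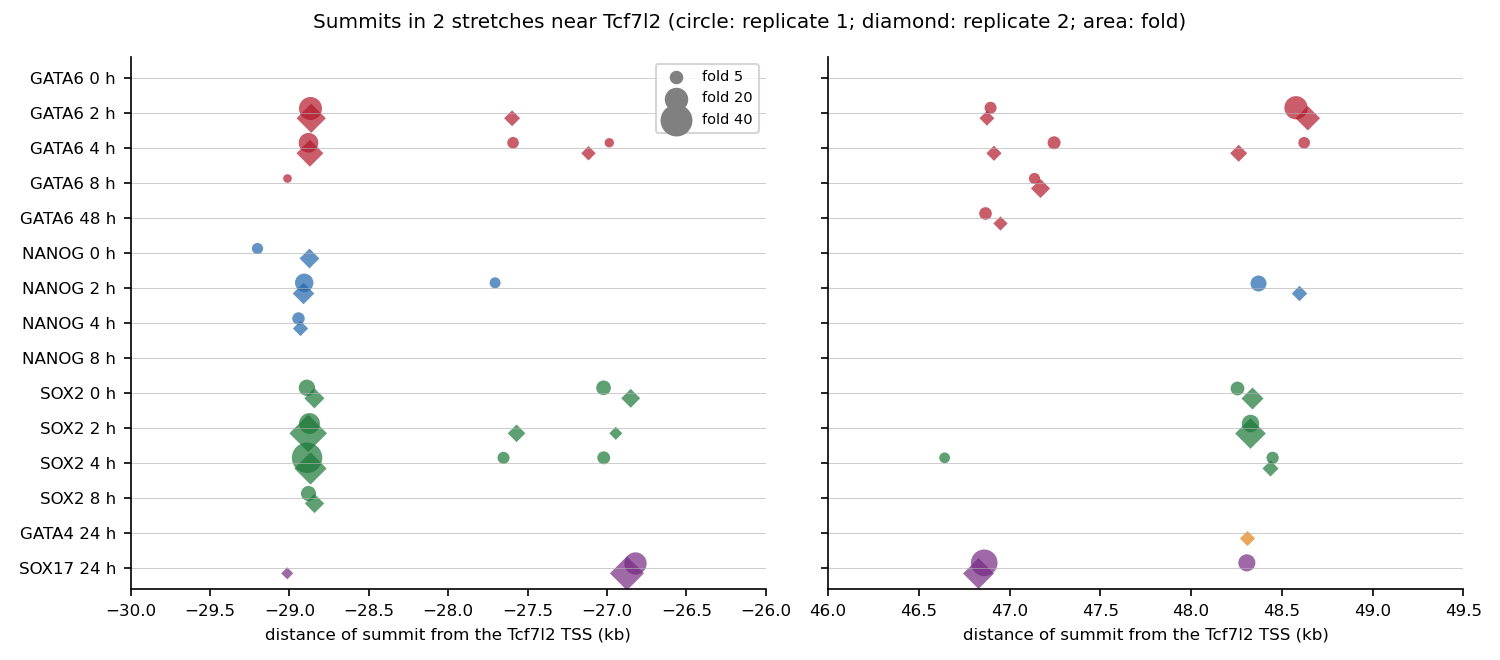
Summits in the upstream and the intronic stretch near Tcf7l2, by distance from its TSS (kb), with a row for each factor and time, circles for replicate 1, diamonds for replicate 2 and point area in proportion to fold. NANOG and SOX2 summits of the highest fold lay at about -28.9 kb and from 48.3 kb on, and the strongest SOX17 summits at -26.8 and -26.9 kb and at 46.9 and 46.8 kb.

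At 12.6 kb, in another Tcf7l2 intron (chr19:55753953-55754992), GATA6 folds were 21.4 and 17.2 at 2 h, 8.73 and 18 at 4 h and 5.97 and 5.16 at 8 h. SOX2 had no peak there at 0 h, then 18.1 and 28.9, 19.1 and 9.82, and 5.3 and 4.85, and NANOG had 4.13 in 1 list at 0 h and 17.9 and 9.24 at 2 h. The site at -41.3 kb (chr19:55699525-55701264) was also held by GATA6 at 2, 4, 8 and 48 h, from 14.0 and 9.26 at 2 h to 3.67 and 6.65 at 48 h, with GATA4 at 11.3 and 9.21 and SOX17 at 13.6 and 21. At the Tcf7l2 TSS (chr19:55741134-55741988) SOX17 folds were 18.5 and 20.3, and GATA6 had 8.88 and 7.6 at 2 h.

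Lef1, a gene of the epiblast programme, held SOX2 and NANOG peaks at 0 h. At -25.6 kb (chr3:131083859-131085737, intergenic) SOX2 folds were 21.2 and 18.4 at 0 h, 9.67 and 9.45 at 2 h and 9.25 and 4.97 at 4 h, with 1 list (4.65) at 8 h. Both 0 h lists lay above all later ones of this stretch. It was named as the strongest of 4 SOX2 sites of both lists near Lef1 at 0 h, when 4.96% of SOX2 regions were as strong. The height of the 0 h folds follows in part from that choice. NANOG folds were 7.89 and 7.84 at 0 h, with 1 list each at 2 h and 4 h, and GATA6 folds were 5.98 and 7.58 at 2 h with no later peak. The summits in this stretch did not all lie in 1 place. Relative to the SOX2 summit of 0 h replicate 1, that of replicate 2 lay at -13 bp. The SOX2 summits lay at 578 and 500 bp at 2 h and at 109 and 545 bp at 4 h. The GATA6 summits of 2 h lay at 384 and 446 bp, so these folds do not follow a single place. At -7.98 kb SOX2 folds were 14.1 and 20.9 at 0 h, 8.98 and 18.3 at 2 h and 23.8 and 6.39 at 4 h, with overlap between the times, and GATA6 folds were 8.55 and 8.05 at 2 h. The intronic site at 33.9 kb (chr3:131144008-131144779) held GATA6 at 14.1 and 7.58 at 2 h and 5.28 and 9.5 at 4 h, and SOX2 at 10.6 and 8.25 at 0 h and 17.3 and 22.5 at 2 h. It was the only Lef1 site held by both SOX17 lists (6.27 and 5.88).

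Tcf7l1 had a site in its own intron at 1.62 kb (chr6:72787098-72788059), with NANOG folds of 6.5 and 10.5 at 0 h and of 12.0 and 7.44 at 2 h. SOX2 had 15.0 and 10.6 at 0 h, 6.45 and 7.44 at 2 h and 11.1 and 5.35 at 4 h, the 4 h lists overlapping those of 0 h, and GATA6 had 9.48 and 4.89 at 2 h. The strongest GATA6 site was upstream at -5.88 kb (chr6:72794799-72796503), with 16.7 and 12.3 at 2 h and 11.9 and 9.98 at 4 h. An intronic site at 48.7 kb (chr6:72740068-72741024) held a peak in 21 lists and was the only Tcf7l1 site of both GATA4 lists (7.05 and 7.31). GATA6 had 11.9 and 14.7 there at 2 h, and 5.79 and 6.02 at 8 h, and SOX2 5.69 and 4.38 at 0 h and 7.69 and 9.32 at 8 h. The SOX17 peaks of Tcf7l1 were many but modest, the strongest (25.1 kb) having folds of 9.4 and 7.45.

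Tcf7 had the fewest sites of the DNA-binding factors. Its GATA6 site at -31.4 kb (chr11:52314058-52314858, intergenic) had folds of 22.3 and 9.72 at 2 h, 10.8 and 13.9 at 4 h and 8.8 and 10.9 at 8 h, and these overlapped between times. Its SOX2 site at -3.56 kb (chr11:52286296-52287139) had folds of 15.4 and 11.9 at 0 h, 6.14 and 11.6 at 2 h and 10.4 and 6.88 at 4 h.

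Sp5 was bound at its TSS (chr2:70474513-70476147) by SOX2 with folds of 16.2 and 16.6 at 0 h, 5.45 and 11.9 at 2 h, 4.62 and 6.2 at 4 h and 4.65 and 5.85 at 8 h. Both 0 h lists lay above all later ones. This was also the strongest of 4 SOX2 sites of both lists near Sp5 at 0 h, so the height of the 0 h folds follows in part from the choice. NANOG had 6.83 and 6.34 at 0 h, then 4.51 and 4.13 at 2 h, with none later, and GATA6 folds 10.4 and 6.96 at 2 h, 7.54 and 10.7 at 4 h and 4.85 and 5.64 at 8 h. At 10.1 kb (chr2:70484557-70485294) NANOG folds were 7.89 and 13.8 at 0 h and SOX2 folds 11.8 and 11.2, while GATA6 reached only 2.85 and 3.79 at 2 h.

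**Figure D5:**
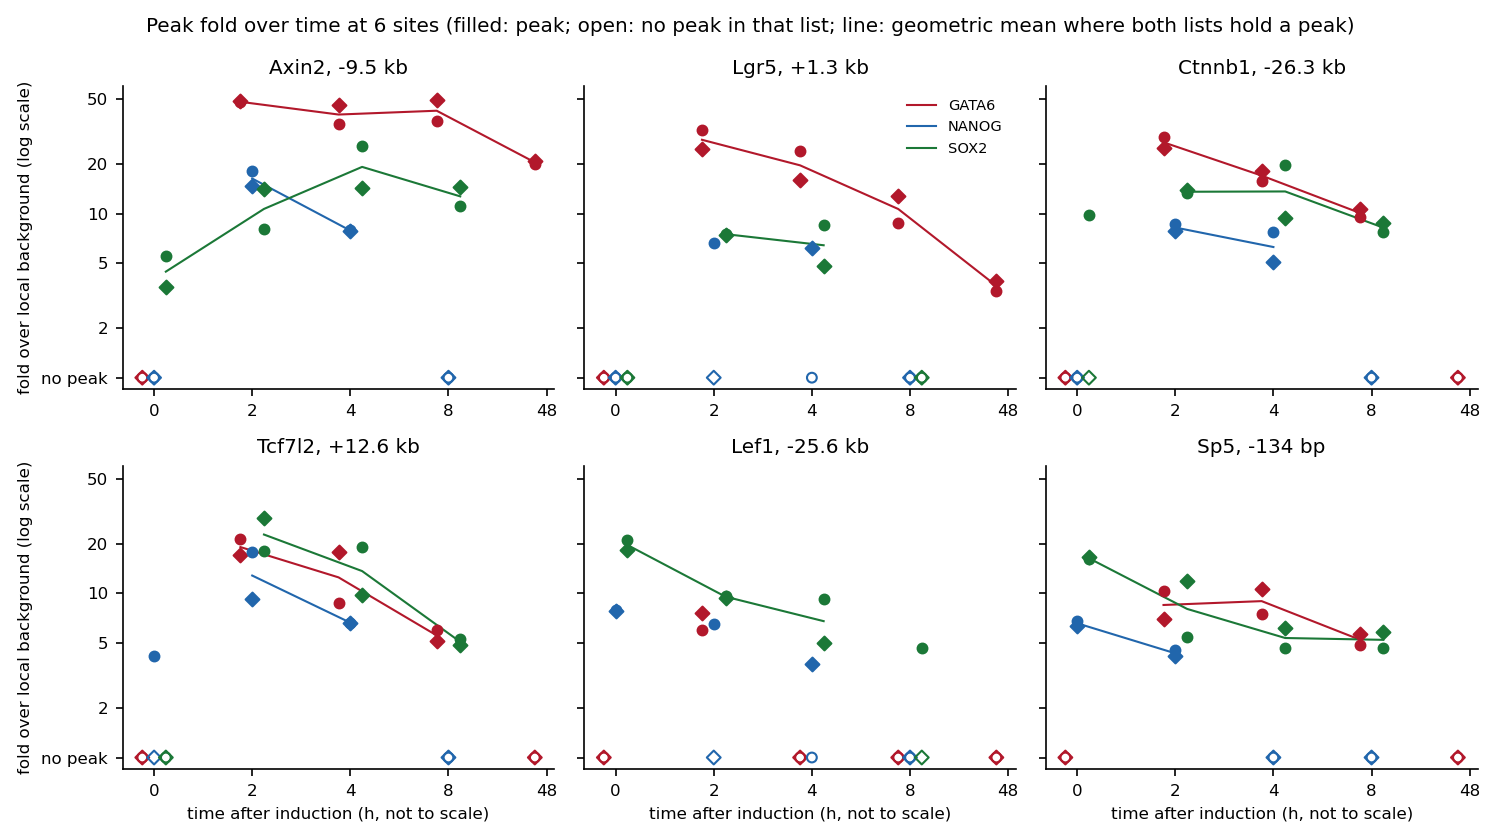
Fold over local background (log axis) at 6 sites against time after induction (axis not to scale), with circles for replicate 1 and diamonds for replicate 2, open symbols for lists without a peak, and lines through the geometric mean where both lists held a peak. GATA6 folds at the Axin2 site stayed between 35.2 and 49.0 from 2 to 8 h, SOX2 folds at Lef1 and Sp5 were highest at 0 h, and at Tcf7l2 no SOX2 peak was called at 0 h. The Lef1 and Sp5 sites were the strongest SOX2 sites of their genes at 0 h, so their high 0 h folds follow in part from the choice. The same holds for GATA6 at 2 h at the Axin2 and Ctnnb1 sites.

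The sites were then followed from one list to another. A list held a site when a peak overlapped it by 1 bp or more, wherever the summits lay. In the upstream Tcf7l2 stretch, for example, the GATA6 and SOX17 summits lay in different places. GATA6 at 2 h had 52 sites of both lists near the 8 genes, and both 4 h lists held 36 of them (69.2%, against 63.8% of all 44776 such sites of the genome). Both 8 h lists held 20 (38.5% against 38%) and both 48 h lists 4 (7.69% against 5.71%). Of the same 52 sites, 7 held NANOG at 0 h (13.5% against 13%), 20 NANOG at 2 h (38.5% against 36.7%) and 16 SOX2 at 0 h (30.8% against 25.7%). GATA4 at 24 h held 5 (9.62% against 5.55%) and SOX17 at 24 h 20 (38.5%, exact binomial 95% interval 25.3 to 53.0%, against 25.1%). The interval treats sites as independent, which neighbouring sites of 8 genes are not, and covers counting error only. SOX17 sites were also spread unevenly over the genes. Of the stretches of overlapping peaks of any list, both SOX17 lists held 11 near Tcf7l2 and 10 near Tcf7l1. They held 3 near Ctnnb1, 1 each near Lef1 and Axin2, and 0 near Tcf7, Lgr5 and Sp5.

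Of the 7 NANOG sites of both lists at 0 h, GATA6 at 2 h held all 7 (76.8% of all such sites of the genome) and SOX2 at 0 h held all 7 (79.2%). NANOG held 6 at 2 h (85.7% against 75.9%), 1 at 4 h (14.3% against 35.3%) and 0 at 8 h (against 3.51%, where 7 sites allow a share of up to 41.0%). Of the 21 SOX2 sites at 0 h, GATA6 at 2 h held 15 (71.4% against 66.2%), SOX2 at 2 h 15 (71.4% against 51.6%), SOX2 at 8 h 5 (23.8% against 21.2%) and SOX17 9 (42.9% against 35.3%). Since all NANOG sites and most SOX2 sites near these genes were also called for GATA6 2 h after induction, and most such sites of the genome were too, the shares near the 8 genes are set beside the genome and were not tested.

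Words were counted in 300 bases around the summit. Among GATA6 2 h sites, 39 of 52 held a GATA word (75% against 69.5% of all), 11 a TCF/LEF word (21.2% against 13.8%) and 24 a SOX word (46.2% against 44.8%). Among SOX2 0 h sites, 8 of 21 held a TCF/LEF word (38.1% against 16.8%), 15 a SOX word (71.4% against 56.2%) and 5 a GATA word (23.8% against 35.2%). Among the 7 NANOG 0 h sites, 2 held a TCF/LEF word (28.6% against 18.7%), 6 a SOX word (85.7% against 62.3%) and 3 a GATA word (42.9% against 44.9%). SOX17 sites had a lower share than the genome for each word, with 9 of 25 holding a GATA word (36% against 54%), 1 a TCF/LEF word (4% against 12.2%) and 11 a SOX word (44% against 58.3%). A GATA word was found at 3 of 5 GATA6 48 h sites (60% against 88.8%) and 3 of 5 GATA4 sites (60% against 86.3%). In only 100 bases around the summit, 3 of the 52 GATA6 2 h sites held a TCF/LEF word (5.77% against 4.88%) and 11 a GATA word (21.2% against 25.7%), and of the 21 SOX2 0 h sites 2 held a TCF/LEF word (9.52% against 6.6%). In RefSeq promoter sequences of the 8 genes (GRCm38.p6, 13 promoters of 300 bases) a TCF/LEF word was found for Sp5 alone, and in 8.65% of all promoters. A word is a match of letters and was not tested as a binding site.

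The wider pathway was described with 109 other WNT genes in 6 lists. At GATA6 2 h, 99 of 109 had a site of both lists (90.8% against 74.7% of all genes), comprising all 17 receptors, all 15 targets, 20 of 25 ligands and agonists, 19 of 22 inhibitors, 15 of 16 intracellular transducers and 13 of 14 nuclear cofactors. At 48 h 29 did (26.6% against 18.5%). All 15 targets had a SOX2 site at 0 h, against 6 of 25 ligands and agonists, and 62 of the 109 did in all (56.9% against 56.1%). NANOG at 0 h had a site at 34 (31.2% against 25.9%), SOX17 at 69 (63.3% against 55.6%) and GATA4 at 31 (28.4% against 17.9%). Tle3, which encodes a Groucho corepressor of TCF factors, had the most GATA6 peaks at 2 h (mean 22), followed by Porcn (18.5), an acyltransferase needed for WNT secretion. Porcn also had the most NANOG peaks at 0 h (mean 5.5).

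By the same exact permutation test, 43 of 107 of these genes had an unadjusted p of 0.05 or less for GATA6, all with fewer peaks at 48 h than at 2 h (40.2% against 36.3% of all genes). They included Myc, Ccnd1 and Cdx2 among 10 of 15 targets, and 4 of 23 ligands and agonists. For NANOG 18 of 106 did (17% against 11.3%), 13 with fewer peaks at 8 h than at 0 h (9.16% of all genes), such as Porcn, Lgr4 and Tle3, and 5 not. For SOX2 0 of 108 did (against 2.37%). None passed after adjustment over all genes.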

How the data were processed

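CUT&RUN libraries of GATA6, NANOG, SOX2, GATA4 and SOX17 were analysed from 30 deposited peak lists, 2 for each of 15 groups. The other 27 of the 57 samples of the series (those of histone marks, of the control antibody and of blastocysts) were not used here. The authors aligned reads to mm10 with Bowtie2, removed blacklisted regions with SAMtools, kept duplicates as marked by Picard, used short fragments for factor signal and called narrow peaks per library with MACS2 against a control antibody. In the deposited lists the authors give for each peak a fold (a ratio over local background), a −log10 p and a −log10 q. Because duplicate reads were kept, fragment counts may hold copies of the same fragment, and no interval is given for them. The intervals given are for shares of sites and cover counting error only. No columns of the authors' own comparisons are in these lists.

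The 8 genes, the lists of other WNT genes and the sites described were chosen with earlier results of these data known. The TSS was the 5′ end of the GENCODE vM21 gene record on GRCm38.p6. All 775295 of 775295 peaks on the named chromosomes lay inside the GRCm38 lengths. Peaks were counted per gene and list, and tested by an exact permutation test with F between times as statistic and Benjamini-Hochberg adjustment over all genes tested. GATA6 lists at 0 h were kept out of the test. Peaks overlapping by 1 bp or more were merged into sites. Fragments at the summit and in the local background were solved from fold and −log10 p to within 0.2%. Sites named in the text are, for each gene, the strongest of both lists in GATA6 2 and 48 h, NANOG 0 and 2 h, SOX2 0 h, SOX17 and GATA4. Also named are the site nearest the TSS where its summit lay within 1 kb, and those held by GATA6 at 2, 4, 8 and 48 h. The sites nearest the TSS of Lef1 (-453 bp, 1 list), Tcf7 (-571 bp, 1 list) and Tcf7l1 (-33 bp, 4 lists) are not described above. That of Tcf7l1 was held by both lists of GATA6 at 2 h and of SOX17. The Lef1 site at -7.98 kb and the strongest SOX2 values at later times were added after the values were seen. The permutation test was tried on simulated peak counts, and the other steps were not tried on simulated data. All steps were run in Python 3.11.15 with numpy 2.4.6, pandas 2.3.3, scipy 1.17.1 and pysam 0.24.0. Alternatives covered stricter peaks, equal list length, other windows, other TSS, nearest TSS, summed folds, a replicate block, lists left out in turn, and GATA6 times by sample record.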

Additional observations from a re-analysis of the deposited data

How the results depend on the processing

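For GATA6, all 7 genes of 8 at an unadjusted exact permutation p of 0.05 or less became 0 at equal list length (5933 peaks) and 3 in a window of 25 kb. They ranged from 3 to 7 when lists were left out in turn. Over all genes, 7122 were called, against 3771 in the 25 kb window, 359 at equal length, 4597 at −log10 q of 5 or more, 11375 at 100 kb, 2990 by nearest TSS, 10088 with summed folds and 11904 with 0 h included. Of these settings, 100 kb, summed folds and 0 h included gave adjusted calls (4495, 4436 and 8146 genes). For NANOG the 2 genes became 1 at −log10 q of 5 or more and 0 at equal list length (2255 peaks), and ranged from 0 to 3 with lists left out. All genes called for NANOG were 2145, against 1294, 45, 956 at 25 kb, 4482 at 100 kb, 885 by nearest TSS and 4197 with summed folds. SOX2 stayed at 0 genes under every alternative, with 237 to 1659 of all genes called outside the replicate block, against 472. Assigning GATA6 times by sample record gave the same 7 genes and 7122 calls, since it exchanges times between groups of equal size. The order of 4, 8 and 48 h would then differ, while each of the 7 genes would still have fewer peaks at the last time than at 2 h, the lists then last being those named 8 h.

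Correlations of replicate deviations between times, over all genes, were -0.0616 to 0.0414 for GATA6, -0.0678 to 0.0161 for NANOG and -0.164 to 0.0647 for SOX2. Peak counts per gene were mostly small, so these correlations cannot decide whether replicate numbers pair the lists. With a replicate block (24 arrangements, smallest p 0.0417) 0 of the 8 genes passed for GATA6, NANOG or SOX2, with 2795, 378 and 54 of all genes called, and the exact p of the 7 GATA6 genes was 0.0833.

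Genes with a site changed as follows. With either list enough, GATA6 0 h gave 1 (1032 of all genes), NANOG 4 h 8 (13621), NANOG 8 h 3 (7175) and SOX2 8 h 7 (12689), and with lists left out in turn the ranges were 0 to 1, 3 to 8, 0 to 3 and 4 to 7. At 25 kb GATA6 48 h, NANOG 0 h and SOX2 8 h each gave 2 (2329, 3305 and 4403). At 4006 peaks per list, an alternative chosen after seeing the data, GATA6 gave 4, 3, 2 and 1 at 2, 4, 8 and 48 h (12.6 to 15.2% of all genes), NANOG 2, 2 and 1 at 0, 2 and 4 h (9.53 to 11.4%), SOX2 2, 2 and 3 at 0, 2 and 4 h (11.7 to 13.4%), and SOX17 2 (15.5%). Of the NANOG 0 h sites, 0% held NANOG at 4 h with 50% overlap or −log10 q of 5 or more, and 6.67% of SOX2 0 h sites held SOX2 at 8 h at that q. The last-minus-first SOX2 difference changed sign for Ctnnb1 at that q (0.5), at equal length (1), with summed folds (0.4233) and without SOX2 0 h replicate 1 (1.5, the range over lists left out being -2.5 to 1.5), for Axin2 at equal length (1) and with summed folds (1.649), and for Tcf7l2 at equal length (0.5). The GATA6 difference changed sign for Lef1 at equal length (1.5). The cause was not tested. Among the alternatives for summary values, 175 stayed, 25 site counts or shares moved and 17 gene counts fell. Staying meant a count within 1.5 times that of the main setting, or a share of sites inside its 95% interval. The 17 were counts of genes at p of 0.05 or less that fell below this range, and not all fell to 0. Among the alternatives for single genes, 325 kept their direction and side of the threshold. Of the rest, 55 were no longer and 7 were newly at p of 0.05 or less, and 8 changed sign.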
